A study of Mus musculus with 12 samples.

Results

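The genes of prostaglandin synthesis, breakdown and reception were described in the hypothalamus of obese mice treated with withaferin A, celastrol or DMSO. They were taken as a list of 9 genes, Ptgs1, Ptgs2, Ptges, Ptgds, Hpgds, Hpgd, Ptger2, Ptger3 and Ptger4, each represented by its probe set with a single gene symbol (the one with the highest mean, where a gene has several). Each of 8 listed genes had 1 such probe set, and all 8 passed the filter on dim probe sets, out of 14953 genes tested and 19938 genes with a single-symbol probe set. Ptgs1, which encodes the constitutive cyclooxygenase, was paired with no single-symbol probe set and was not analysed here. The list was selected on its measured values, because Ptgs2 was higher with celastrol than with DMSO, so the values of the listed genes in that comparison are given as a description without a test.

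Prostaglandins are lipid messengers made from arachidonic acid, which phospholipases release from membranes. A cyclooxygenase, encoded by Ptgs1 or Ptgs2, converts arachidonic acid to prostaglandin H, terminal synthases turn this into the separate prostaglandins, and these act on G protein-coupled receptors of nearby cells until they are oxidised. In the hypothalamus prostaglandin E is known as the mediator of fever, and prostaglandin D, made mostly by the product of Ptgds, is known as a sleep-promoting signal.

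Male C57BL/6J mice had been fed a diet with 45% fat for 20 weeks, starting at 3 weeks of age, and were 23 weeks old. All mice, those of the vehicle group included, first received intraperitoneal DMSO for 4 days. For the next 4 days they were injected daily with withaferin A at 2 mg/kg, with celastrol at 100 µg/kg, or again with DMSO, the vehicle. Each of the 3 groups had 4 biological replicates, each on its own one-colour Affymetrix array, giving 12 arrays. Withaferin A, a steroidal lactone, and celastrol, a triterpenoid, are plant compounds known to lower food intake in obese mice, and they were given at different doses. The study held no lean or untreated group, so every level is that of an obese, injected mouse.

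The deposited values are log2 signals on a common scale, with array medians between 6.89 and 6.98 and correlations between arrays of 0.981 to 0.994, and the number of arrays limits the precision. A log2 value can be compared between arrays for 1 probe set, but not between probe sets, which bind with different strength. Each of 9 measured markers of the hypothalamus, among them Nkx2-1, Avp and Hcrt, passed the filter, with list means of 9.88 to 10.11 with withaferin A, 9.97 to 10.17 with celastrol and 10.06 to 10.23 with DMSO. The median difference of the 9 genes between celastrol and DMSO was -0.15 on the log2 scale. Oxt fell with celastrol by 0.40 ± 0.07 (SE, limma adjusted p = 0.0179), and 8 genes had an adjusted p of 0.05 or more. Among those, Pomc went the other way, by 0.63 ± 0.25 (limma, adjusted p = 0.356). Pituitary genes (6 measured of 7 listed, with Tshb below the filter) stood out on celastrol replicate 2, with a list mean of 8.43 against 6.64, 6.67 and 6.73 on the other celastrol arrays. The same list lay between 6.32 and 6.72 with withaferin A and between 6.07 and 6.47 with DMSO, so values of Ptgs2 and Ptgds are also given without that celastrol array. In limma fits with Benjamini-Hochberg adjustment over 14953 genes, 115 genes (0.769%) passed an adjusted p of 0.05 for celastrol against DMSO. The numbers were 0 genes (0%) for withaferin A against DMSO, where 2352 had an unadjusted p below 0.05, and 7 genes (0.0468%) for withaferin A against celastrol. These counts rest on single arrays: for celastrol against DMSO 6 genes passed without DMSO replicate 2 and 207 without withaferin A replicate 1, and for withaferin A against DMSO 172 passed without DMSO replicate 3. In bulk tissue a smaller number of cells and less RNA per cell cannot be told apart.

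The promoter windows of the pair of genes that stood highest with celastrol, Ptgs2 and Ptgds, are shown with the motifs found in them, as the sequence context of the values that follow. They are RefSeq windows of GRCm38.p6, from 250 bases before to 50 bases after the annotated start, and all 9 listed genes had one. The Ptgs2 window is chr1:150099781-150100080 on the plus strand, and the Ptgds window is chr2:25469700-25469999 on the minus strand. Capitals mark matches to the motifs searched.
Ptgs2: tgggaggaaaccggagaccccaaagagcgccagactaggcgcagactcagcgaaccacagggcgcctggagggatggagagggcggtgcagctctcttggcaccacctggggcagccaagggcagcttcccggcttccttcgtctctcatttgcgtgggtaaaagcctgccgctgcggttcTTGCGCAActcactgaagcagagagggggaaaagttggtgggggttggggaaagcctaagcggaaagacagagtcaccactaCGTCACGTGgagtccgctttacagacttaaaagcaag
Ptgds: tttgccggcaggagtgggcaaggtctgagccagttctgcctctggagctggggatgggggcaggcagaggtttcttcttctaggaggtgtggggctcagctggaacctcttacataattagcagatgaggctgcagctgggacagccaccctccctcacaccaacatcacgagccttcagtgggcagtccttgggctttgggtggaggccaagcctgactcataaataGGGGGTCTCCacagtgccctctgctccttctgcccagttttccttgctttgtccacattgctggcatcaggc
The motifs were searched on both strands of the 9 windows. In the Ptgs2 window the 8-base C/EBP palindrome TTGCGCAA began 69 bases before the start, a site of a type known to serve inflammatory induction of this gene. The same palindrome was present in 60 of 32851 windows of equal length (0.183%). The half-site of the cAMP response element, TGACG, was found on the opposite strand, at position 14 when the start base is counted as 1. It shared 2 bases with an E-box, CACGTG, and these motifs occurred in 20.8% and 7.15% of all windows. The Ptgds window held 1 match to the NF-kB consensus, 22 bases before the start, as did 8.46% of all windows. TATAAA was found in the window of Hpgd alone (13.6% of all windows), and AGAACA, a half-site of the glucocorticoid receptor, in those of Ptger2, Ptges and Ptgs1 (19% of all windows). A match is a description of the letters and does not show that a factor binds.

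Ptgs2, the inducible cyclooxygenase, was higher with celastrol and close to the DMSO level with withaferin A. Its probe set (10350516) gave log2 signals of 7.05, 6.78, 6.91 and 6.42 with withaferin A, 7.24, 7.88, 7.58 and 7.35 with celastrol, and 6.39, 6.73, 6.82 and 6.70 with DMSO. Every celastrol array lay above every array of the other groups, while the withaferin A and DMSO arrays were interspersed. The means were 6.79 ± 0.27 with withaferin A, 7.51 ± 0.29 with celastrol and 6.66 ± 0.19 with DMSO (SD, n = 4 each). The celastrol difference from DMSO, which was used to select the list, was 0.85 ± 0.15 on the log2 scale (SE), or 1.81-fold. It lay between 0.73 and 0.94 when 1 array at a time was left out. The lowest of these values came without celastrol replicate 2, the array with high pituitary genes, which also had the highest Ptgs2 signal. The withaferin A arrays played no part in the selection, but the DMSO arrays did. With withaferin A, Ptgs2 differed from DMSO by 0.13 ± 0.15, with a 95% interval from -0.19 to 0.46 (limma, adjusted p = 0.698). Through the shared DMSO arrays this value is not free of the selection. Set directly against celastrol, Ptgs2 was lower with withaferin A, with a log2 difference of -0.72 ± 0.15 and an interval from -1.05 to -0.40. This is again a description, since the celastrol arrays chose the gene.

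Ptgs2 is known to be made by excitatory neurons after activity and by vascular cells after inflammatory signals, so the marker lists of these sources are given beside it. The 7 genes of the activity list, all measured, had means of 7.43 to 7.64 with withaferin A, 7.24 to 7.36 with celastrol and 7.29 to 7.83 with DMSO. Their summed signals were 1305 to 1591 with withaferin A, 1158 to 1302 with celastrol and 1187 to 1896 with DMSO. The list means were lower on every celastrol array than on every withaferin A array. Celastrol overlapped with DMSO through DMSO replicate 1, at 7.29, the other DMSO arrays standing at 7.72, 7.83 and 7.74. Against DMSO the median difference of the 7 genes with celastrol was -0.28, and 1 of them passed the threshold. This gene, Npas4, a transcription factor induced by neuronal activity, fell with celastrol by 0.49 ± 0.08 (limma, adjusted p = 0.0208). The endothelial list (7 measured of 8) had summed signals of 2572 to 2910 with withaferin A, 2564 to 2805 with celastrol and 2806 to 2933 with DMSO, all celastrol arrays lying below the DMSO arrays. The list's median difference between celastrol and DMSO was -0.01, and Pecam1, Flt1 and Abcb1a stood at 0.01, 0.04 and 0.03. Of its 7 genes 1 passed the threshold, Tek, the angiopoietin receptor, which fell with celastrol by 0.55 ± 0.11 (limma, adjusted p = 0.0450). Slco1a4, a transporter, had the next lowest value, -0.24 ± 0.09 (adjusted p = 0.303). The pituitary list had a higher mean on every celastrol array than on every DMSO array. Its summed signals overlapped, with 561 to 996 with withaferin A, 857 to 4597 with celastrol and 458 to 945 with DMSO. Of its 5 tested genes 0 passed the threshold for celastrol against DMSO. Their median difference was 1.24, and 3 had an unadjusted p below 0.05 (limma), against 1561 of all 14953 genes tested. The part of these lists in the Ptgs2 values was not tested.

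**Figure D1:**
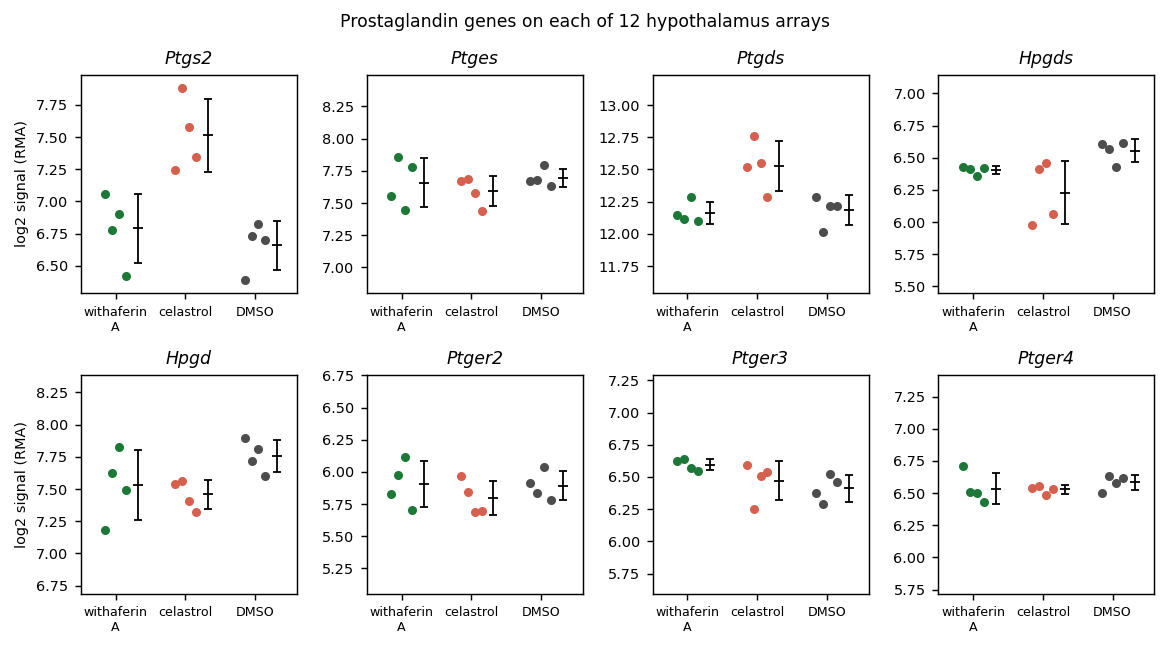
RMA log2 signal of the 8 measured prostaglandin genes on each of the 12 arrays, by treatment, with every panel spanning the same log2 range. Points are arrays in the order of replicates 1 to 4, and bars show the mean and SD of 4 arrays. The celastrol points of Ptgs2 lie above all others, from 7.24 to 7.88, whereas those of Ptges and the receptors mix with the other groups.

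Of the terminal synthases, Ptges encodes the inducible microsomal synthase that turns prostaglandin H into prostaglandin E. Its signals (probe set 10481518) were 7.56, 7.86, 7.44 and 7.78 with withaferin A, 7.67, 7.69, 7.57 and 7.44 with celastrol, and 7.67, 7.68, 7.80 and 7.63 with DMSO. The groups overlapped throughout. Withaferin A differed from DMSO by -0.04 ± 0.09 (limma, adjusted p = 0.865) and from celastrol by 0.06 ± 0.09 (adjusted p = 0.744). The celastrol value against DMSO was -0.10 ± 0.09, with an interval from -0.29 to 0.09.

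Ptgds encodes lipocalin-type prostaglandin D synthase, an abundant brain protein known from the leptomeninges, the choroid plexus and oligodendrocytes. Its signals (probe set 10480734) were 12.14, 12.11, 12.29 and 12.10 with withaferin A, 12.52, 12.76, 12.55 and 12.29 with celastrol, and 12.29, 12.01, 12.21 and 12.22 with DMSO. Of the celastrol arrays 3 lay well above the rest, and replicate 4 was level, to 2 decimals, with the highest array of each other group. The celastrol difference from DMSO was 0.35 ± 0.09, or 1.27-fold, and it was 0.27 without celastrol replicate 2. Between withaferin A and DMSO the difference was -0.02 ± 0.09 (limma, adjusted p = 0.927). It had no stable sign, being 0.070 after a renewed quantile normalization. Withaferin A was below celastrol by a log2 value of -0.37 ± 0.09, with an interval from -0.56 to -0.17, which did not pass the threshold (limma, adjusted p = 0.124).

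Marker lists of the cells known to make Ptgds are given beside it. The leptomeningeal list (7 measured of 7, 1 of them below the filter) had summed signals of 1445 to 1917 with withaferin A, 1661 to 1863 with celastrol and 1535 to 1826 with DMSO. Choroid plexus markers (5 of 5) summed to 620 to 682 with withaferin A, 590 to 673 with celastrol and 584 to 914 with DMSO. Both lists overlapped between all groups. Oligodendrocyte markers (7 measured of 8) had list means of 10.15 to 10.35 with withaferin A and 10.15 to 10.19 with celastrol, all below the 10.37 to 10.48 of DMSO. Their summed signals were 11497 to 12385 with withaferin A, 11841 to 12233 with celastrol and 12118 to 13162 with DMSO. For celastrol against DMSO their median difference was -0.20, with 2 of 7 genes past the threshold and 5 not. Opalin, a myelin membrane protein, fell with celastrol to 0.499 of the DMSO level (limma, adjusted p = 0.0229), and Sox10, the transcription factor of the lineage, fell by 0.39 ± 0.08 (adjusted p = 0.0433). Mobp, a myelin protein, went the other way, with all celastrol arrays above all DMSO arrays and a difference of 0.31 ± 0.08 that did not pass (limma, adjusted p = 0.127), and it differed from DMSO by 0.01 ± 0.08 with withaferin A (adjusted p = 0.948). The part of these cells in the Ptgds values was not tested.

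Hpgds encodes the other prostaglandin D synthase, the haematopoietic form, which in the brain is known from microglia. Its signals (probe set 10545101) were 6.43, 6.41, 6.36 and 6.42 with withaferin A, 5.98, 6.41, 6.46 and 6.06 with celastrol, and 6.61, 6.57, 6.43 and 6.61 with DMSO. The celastrol arrays split into a low pair, replicates 1 and 4, and a pair at the withaferin A level, giving an SD of 0.24 against 0.03 with withaferin A and 0.09 with DMSO. The celastrol difference from DMSO was -0.33 ± 0.10, opposite in sign to that of Ptgds. Withaferin A differed by -0.15 ± 0.10 from DMSO (limma, adjusted p = 0.461) and by 0.18 ± 0.10 from celastrol (adjusted p = 0.378). Microglial markers (7 measured of 8, with Aif1 below the filter) overlapped between the groups. Their summed signals were 2764 to 3067 with withaferin A, 2906 to 3631 with celastrol and 2887 to 3263 with DMSO. The 6 tested genes went opposite ways for celastrol against DMSO, and 0 passed the threshold. P2ry12 differed by -0.34 ± 0.12 and Cx3cr1 by -0.26 ± 0.13, all celastrol arrays of Cx3cr1 lying below all DMSO arrays. C1qb, the largest single term of the sum, differed by 0.33 ± 0.09. Tmem119, Csf1r and C1qa stood at 0.06, -0.03 and -0.06. The part of microglia in the Hpgds values was not tested.

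Hpgd encodes the dehydrogenase that starts the inactivation of prostaglandins. Its signals (probe set 10571840) were 7.18, 7.63, 7.82 and 7.49 with withaferin A, 7.54, 7.57, 7.41 and 7.32 with celastrol, and 7.89, 7.72, 7.81 and 7.60 with DMSO. All celastrol arrays were below all DMSO arrays, and the withaferin A arrays were spread from below the celastrol arrays to the upper DMSO arrays. The celastrol difference from DMSO was -0.30 ± 0.11. Withaferin A differed from DMSO by -0.23 ± 0.11, with an interval from -0.47 to 0.02 (limma, adjusted p = 0.357), and from celastrol by 0.07 ± 0.11 (adjusted p = 0.785).

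The receptors for prostaglandin E differed little. Ptger3 encodes EP3, the receptor known to carry the fever signal in the preoptic hypothalamus. Its signals (probe set 10497079) were 6.63, 6.64, 6.57 and 6.55 with withaferin A, 6.59, 6.25, 6.51 and 6.54 with celastrol, and 6.38, 6.29, 6.52 and 6.46 with DMSO. The withaferin A arrays all lay above the DMSO arrays, by a small margin. The difference was 0.18 ± 0.08, or 1.14-fold, with an interval from 0.02 to 0.35, and it did not pass the threshold (limma, adjusted p = 0.269). With celastrol the value against DMSO was 0.06 ± 0.08, and withaferin A differed from celastrol by 0.12 ± 0.08 (adjusted p = 0.430).

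Ptger2 and Ptger4 encode EP2 and EP4, receptors that raise cAMP. Ptger2 (probe set 10414271) had signals of 5.83, 5.97, 6.12 and 5.70 with withaferin A, 5.96, 5.84, 5.69 and 5.69 with celastrol, and 5.92, 5.84, 6.04 and 5.78 with DMSO. It lay close to the filter on dim probe sets, a mean of 5.81, and its groups overlapped. Withaferin A differed from DMSO by 0.01 ± 0.09 (limma, adjusted p = 0.956) and from celastrol by 0.11 ± 0.09 (adjusted p = 0.577), and the celastrol value against DMSO was -0.09 ± 0.09. Ptger4 (probe set 10427461) had signals of 6.71, 6.50, 6.50 and 6.43 with withaferin A, 6.54, 6.56, 6.48 and 6.53 with celastrol, and 6.50, 6.64, 6.58 and 6.62 with DMSO. These groups overlapped as well. The differences of Ptger4 were -0.05 ± 0.06 for withaferin A against DMSO (limma, adjusted p = 0.726), 0.01 ± 0.06 for withaferin A against celastrol (adjusted p = 0.967) and -0.06 ± 0.06 for celastrol against DMSO. The sign of the Ptger2 difference between withaferin A and DMSO, and of the Ptger4 difference between withaferin A and celastrol, turned under both rescalings of the arrays, to -0.068 and -0.041 after quantile normalization.

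**Figure D2:**
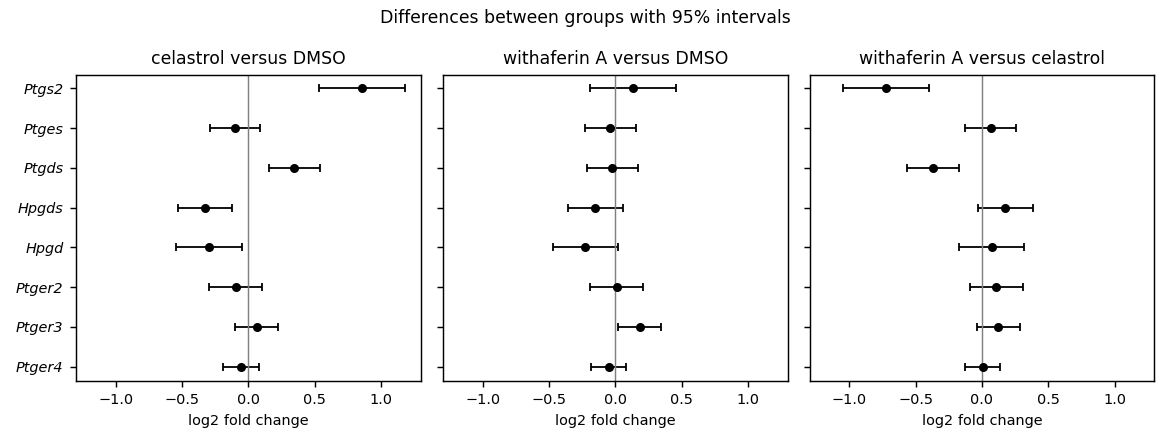
Log2 fold changes of the 8 measured prostaglandin genes with 95% intervals from the fit to all 12 arrays, in the 3 comparisons. In celastrol versus DMSO, the comparison that selected the list, Ptgs2 stands at 0.85. In withaferin A versus DMSO the interval of Ptger3, from 0.02 to 0.35, is the one that leaves out 0.

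Counted over the 8 measured genes, withaferin A against DMSO gave 0 genes past the threshold (0% of all genes tested). It gave 1 with an unadjusted p below 0.05, against 2352 of all 14953 genes tested. In that comparison 1 gene, Ptger3, had arrays that did not overlap between the groups, as did 7.6% of all genes tested. The median difference of the 8 genes was -0.03, against -0.0041 over all genes tested. Withaferin A against celastrol gave 0 of the 8 genes past the threshold (0.0468% of all genes) and 2 genes, Ptgs2 and Ptgds, with non-overlapping arrays (9.27% of all genes). The median there was 0.07, against 0.01 over all genes. For celastrol against DMSO, which selected the list, the count was 1 gene past the threshold (0.769% of all genes) and 3 non-overlapping, Ptgs2 and Ptgds above and Hpgd below (7.21% of all genes), with a median of -0.08 against -0.02 over all genes. Nothing is read from the counts of that comparison. Its 1 gene, Ptgs2, was chosen by this comparison, so its passing is no test of it. Ptgs2 no longer passed when DMSO replicate 1, 2 or 4 was left out (differences of 0.76, 0.88 and 0.87). Without celastrol replicate 2 or 3 it did not pass either (0.73 and 0.83). Withaferin A against DMSO and celastrol against DMSO share the DMSO arrays, so their values are set side by side and were not correlated.

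**Figure D3:**
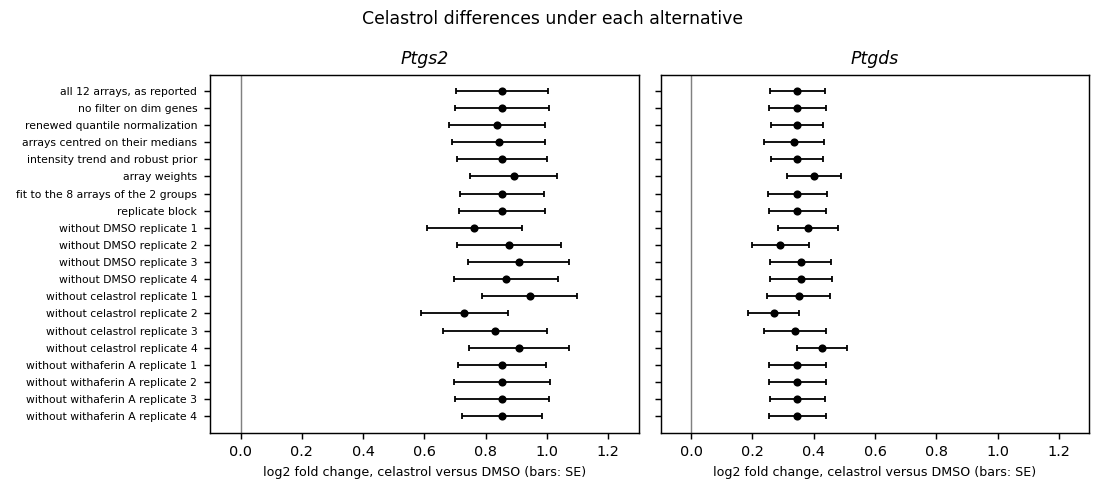
Log2 fold change of Ptgs2 and Ptgds for celastrol versus DMSO with all 12 arrays and under each alternative processing, with SE bars. Ptgs2 stays between 0.73 and 0.94 and Ptgds between 0.27 and 0.43, and both are at their lowest without celastrol replicate 2.

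Within groups, the genes of the list were set against each other in pairs. After each group's mean was subtracted, the pair with the highest Pearson correlation over the 12 arrays was Hpgd with Ptger2, at 0.72, and the lowest was Hpgd with Ptger4, at -0.63. Ptgs2 had its highest value with Ptger4, 0.62, against 0.41 with Ptgds and -0.14 with Ptges. The genes outside the list with the highest correlation to Ptgs2 by the same measure were Emilin2 at 0.93, Vasn at 0.88, Hoga1 at 0.87, Rpl26 at 0.86 and Cybrd1 at 0.85. These are descriptions of 12 arrays that share their processing, and the highest of many correlations are high in part because they were picked.

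Around the list, 54 other eicosanoid genes were examined, from the release of arachidonic acid to the leukotrienes. Of these, 51 had a single-symbol probe set and 40 passed the filter. No gene of the 40 passed the threshold in any comparison (limma, Benjamini-Hochberg over all genes). With an unadjusted p below 0.05 there were 5 for withaferin A against DMSO, 3 for withaferin A against celastrol and 4 for celastrol against DMSO. Over all 14953 genes tested the numbers were 2352, 2413 and 1561, in the same order. The median difference was 0.07 for withaferin A against DMSO, 0.03 for withaferin A against celastrol and 0.03 for celastrol against DMSO, with 27, 24 and 25 of the 40 genes above 0 in these comparisons. Over all genes tested the medians were -0.0041, 0.01 and -0.02. Arrays did not overlap between withaferin A and DMSO for 2 genes, Pla2g2d and Pla2g12a (7.6% of all genes tested), between withaferin A and celastrol for Pla2g12a and Ptges3 (9.27%), and between celastrol and DMSO for Pla2g3 and Alox5ap (7.21%).

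Arachidonate release (16 genes tested of 21) held the gene with the widest range, Pla2g3, a secreted phospholipase A2. Its signals (probe set 10373756) were 7.95, 6.83, 7.21 and 6.75 with withaferin A, 7.48, 7.37, 7.47 and 7.34 with celastrol, and 6.49, 6.70, 6.84 and 6.61 with DMSO. The celastrol arrays lay closely together above all DMSO arrays, and the withaferin A arrays were scattered, replicate 1 standing highest of all 12. Celastrol differed from DMSO by 0.75 ± 0.20, which did not pass the threshold in the fit to all arrays (limma, adjusted p = 0.119). The SE pools the spread of the 3 groups, and the SD was 0.55 with withaferin A, 0.07 with celastrol and 0.14 with DMSO. With the same difference of 0.75, Pla2g3 passed in a fit to the 8 celastrol and DMSO arrays (limma, adjusted p = 7.83e-04) and without withaferin A replicate 1 (limma, adjusted p = 0.00318). With array weights it passed as well, at 0.77 (limma, adjusted p = 0.0373). In each of these 3 settings more of all genes passed than in the main fit. In 16 of the 19 alternatives 0 of the other eicosanoid genes passed for celastrol against DMSO. For withaferin A against DMSO Pla2g3 differed by 0.52 ± 0.20 (limma, adjusted p = 0.249).

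Of the other release genes, Pla2g12a, another secreted phospholipase, had signals of 7.23, 7.50, 7.25 and 7.28 with withaferin A, 7.11, 7.19, 7.21 and 6.99 with celastrol, and 7.08, 7.08, 7.16 and 7.11 with DMSO. Its withaferin A arrays lay above all others. It differed by 0.21 ± 0.07 from DMSO (limma, adjusted p = 0.209) and by 0.19 ± 0.07 from celastrol (adjusted p = 0.217). Daglb, a diacylglycerol lipase that feeds arachidonate release through an endocannabinoid, stood 0.16 ± 0.06 above DMSO with withaferin A (limma, adjusted p = 0.226) and 0.13 ± 0.06 above DMSO with celastrol (adjusted p = 0.444). Pla2g4e, a cytosolic phospholipase A2 family member, stood 0.26 ± 0.10 higher with withaferin A than with celastrol (limma, adjusted p = 0.238). Pla2g2e differed in that comparison by 0.25 ± 0.14 (adjusted p = 0.377).

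Of the other synthases and reductases (8 tested of 10), Ptges3, a cytosolic prostaglandin E synthase also known as the Hsp90 co-chaperone p23, was the one with non-overlapping arrays. It had 11.13, 11.04, 11.08 and 11.09 with withaferin A, 11.17, 11.49, 11.24 and 11.28 with celastrol, and 11.42, 11.23, 11.08 and 11.23 with DMSO. Withaferin A lay below celastrol on all arrays, by a log2 value of -0.21 ± 0.08 (limma, adjusted p = 0.224), and differed from DMSO by -0.15 ± 0.08 (adjusted p = 0.359). Ptgis, the prostacyclin synthase, differed from DMSO by 0.21 ± 0.12 with withaferin A (limma, adjusted p = 0.396) and by 0.15 ± 0.12 with celastrol (adjusted p = 0.719). Ptges2, a further prostaglandin E synthase, and Cbr1, a carbonyl reductase that acts on prostaglandins, differed from DMSO by -0.09 and -0.05 with celastrol (limma, adjusted p = 0.702 and 0.793).

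Among the 5 tested of the 7 other receptor genes, the largest differences from DMSO were those of Ptgfrn. This gene encodes a membrane protein known as a negative regulator of the prostaglandin F receptor. Its signals (probe set 10500666) were 7.95, 7.73, 7.93 and 7.84 with withaferin A, 8.04, 7.97, 7.95 and 7.65 with celastrol, and 7.53, 7.51, 7.77 and 7.68 with DMSO. The groups overlapped slightly. It differed from DMSO by 0.24 ± 0.09 with withaferin A (limma, adjusted p = 0.244) and by 0.28 ± 0.09 with celastrol (adjusted p = 0.204). Ptgdr, a prostaglandin D receptor, differed by -0.11 ± 0.09 with withaferin A (limma, adjusted p = 0.593) and by 0.08 ± 0.09 with celastrol (adjusted p = 0.847). Ptger1, which encodes EP1, differed from DMSO by 0.11 ± 0.10 with withaferin A (limma, adjusted p = 0.595), and Tbxa2r, the thromboxane receptor, by -0.14 ± 0.12 with celastrol (adjusted p = 0.765). Ptgir, the prostacyclin receptor, lay below the filter and was not tested. In a fit without the filter it differed from DMSO by 0.36 ± 0.15 with withaferin A and 0.27 ± 0.15 with celastrol.

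Both prostaglandin transporters were tested. Abcc4, an exporter, stood 0.07 ± 0.09 above DMSO with withaferin A (limma, adjusted p = 0.733) and 0.20 ± 0.09 above DMSO with celastrol (adjusted p = 0.438). Slco2a1, which takes prostaglandins up, stood 0.20 ± 0.17 above DMSO with withaferin A (limma, adjusted p = 0.608) and 0.15 ± 0.17 above DMSO with celastrol (adjusted p = 0.839). In the lipoxygenase and leukotriene branch (9 tested of 14), Alox5ap, the helper protein of arachidonate 5-lipoxygenase, had celastrol arrays above all DMSO arrays, with a difference of 0.19 ± 0.10 (limma, adjusted p = 0.550). Cysltr1, a cysteinyl leukotriene receptor, differed from DMSO by 0.19 ± 0.12 with withaferin A (limma, adjusted p = 0.473) and by 0.20 ± 0.12 with celastrol (adjusted p = 0.635). Lta4h, which makes leukotriene B, and Ggt5, which trims leukotriene C, differed from DMSO by -0.11 and 0.12 with withaferin A (limma, adjusted p = 0.435 and 0.437).

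**Figure D4:**
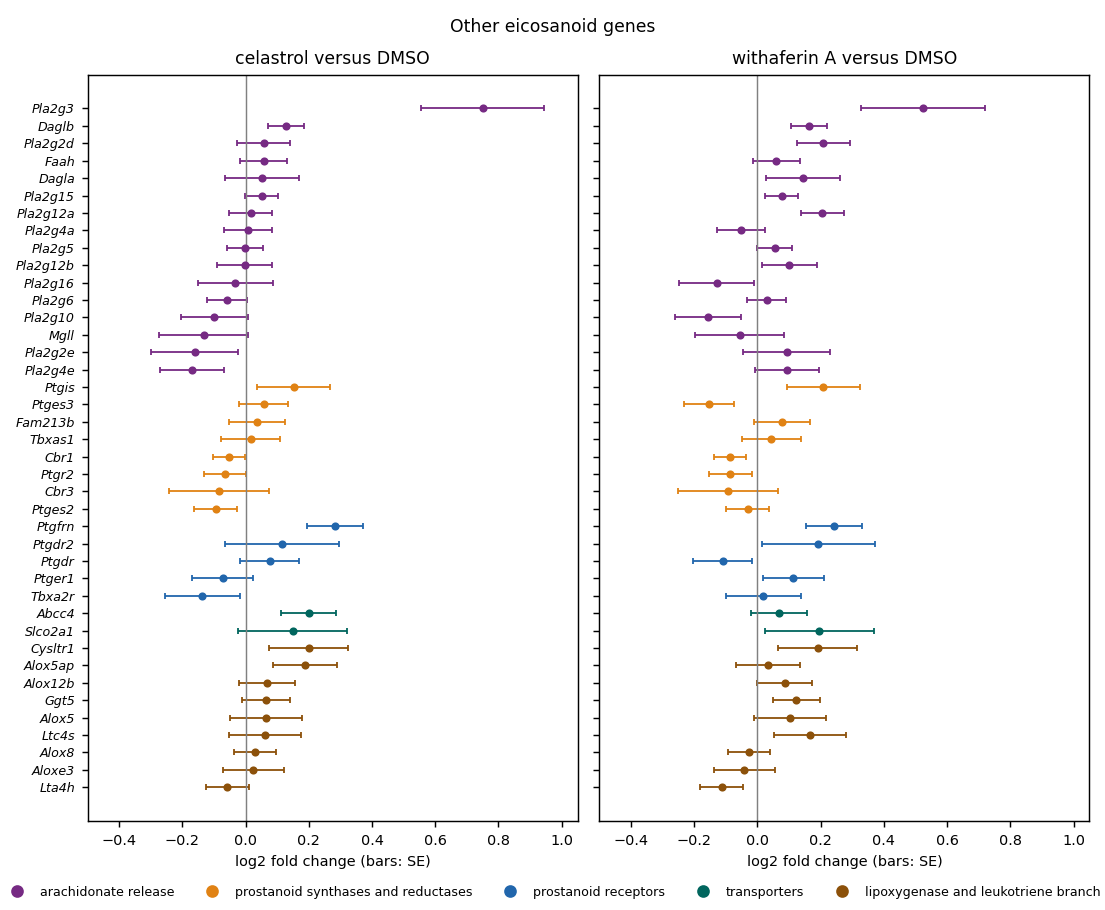
Log2 fold change and SE of the 40 tested eicosanoid genes outside the list, against DMSO, coloured by role and ordered within each role by the celastrol value. Pla2g3 stands apart at 0.75 with celastrol and 0.52 with withaferin A, and most of the others lie within 0.2 of 0.

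**Figure D5:**
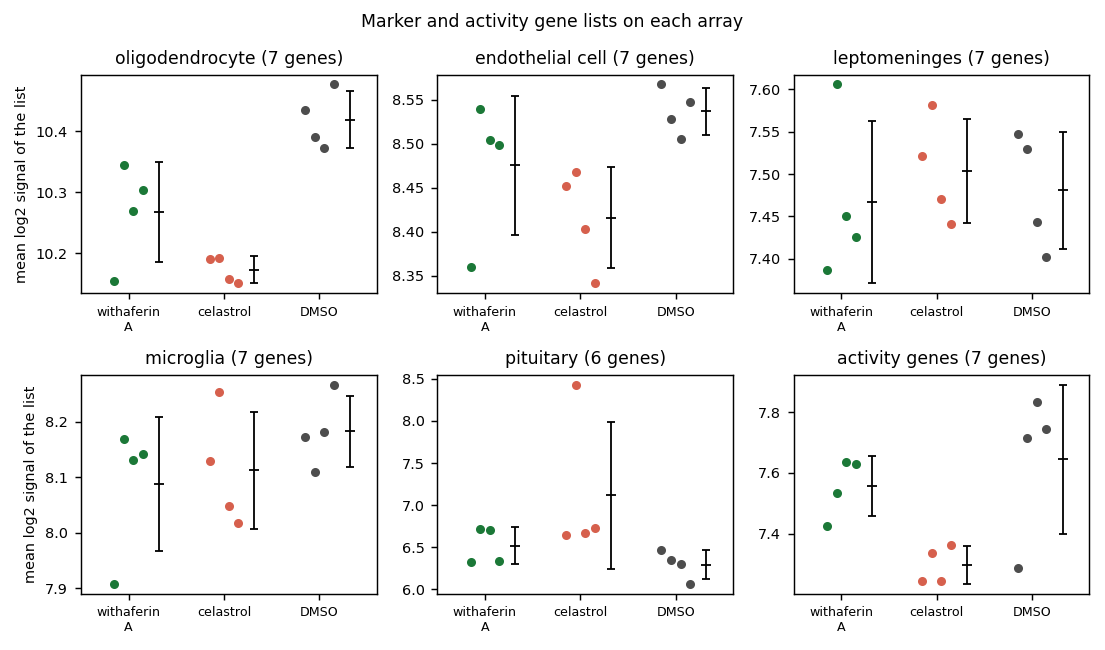
Mean log2 signal of 6 marker and activity lists on each array, with the mean and SD of 4 arrays. The oligodendrocyte means lie lower with both compounds than with DMSO (10.37 to 10.48), the activity means are lower with celastrol than with withaferin A, and celastrol replicate 2 stands at 8.43 for pituitary genes.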

How the data were processed

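Total RNA of 12 hypothalami was hybridised to Affymetrix arrays. The deposited values are log2 signals, made by the authors with RMA per the submitters' processing notes; its version and the genome build are not given in the sources used here. Of 35556 probe sets, 21789 had 1 gene symbol in the platform annotation, 1621 several and 12146 none. The highest-mean single-symbol probe set stood for a gene, and genes with a mean under the 25th percentile were left out. Group means of all 12 arrays were fitted with limma 3.58.1 in R 4.3.3 (lmFit, eBayes; 9 residual and 4.44 prior degrees of freedom), with two-sided tests, Benjamini-Hochberg adjustment and a threshold of 0.05. The errors given with log2 differences are standard errors of this fit. Its steps were tested on simulated data. No pair of arrays held identical values.

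The listed genes, the other lists and the tests were chosen with earlier results of these data known. Named were the listed genes, the 3 genes of smallest p of each other eicosanoid group per comparison (a selection of these is printed), the 5 genes most like Ptgs2, and genes of the marker lists. The marker genes were chosen after their values were seen, 3 a list at most, except in the hypothalamus, microglial and endothelial lists. Lists of astrocyte, neuron, mast cell, perivascular macrophage, neutrophil, thalamus and cortex genes were scored as well. Alternatives were array weights, a robust prior with an intensity trend, median centring, a second quantile normalization, no filter, a replicate block, fits to the 8 arrays compared and the omission of each array. Another probe set per gene was not run, since each listed gene had 1. Motifs were searched with Python 3.11.15 and plots drawn with matplotlib 3.10.9.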

Additional observations from a re-analysis of the deposited data

Results flagged for a closer look

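In 6 of 132 groups of 4 arrays, 1 array stood apart from the other 3, with a gap to the nearest above Dixon's critical share of the group's range. Chance flags about 1 in 20 such groups, and no explanation was tested. Pituitary genes had a list mean of 8.43 on celastrol replicate 2, against 6.64 to 6.73 on the other celastrol arrays. Microglial markers had a list mean of 7.91 on withaferin A replicate 1, against 8.13 to 8.17 on the other withaferin A arrays. Choroid plexus markers averaged 7.09 on withaferin A replicate 4, against 6.93 to 6.96 on the other withaferin A arrays, and 7.28 on DMSO replicate 1, against 6.86 to 6.93 on the other DMSO arrays. Cortex markers averaged 5.92 on DMSO replicate 4, against 6.01 to 6.03 on the other DMSO arrays. Ptges2 stood at 8.01 on DMSO replicate 1, against 7.82 to 7.84 on the other DMSO arrays. Of the 8 prostaglandin genes described, 0 had an array that stood apart in this way.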

How the results depend on the processing

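For celastrol against DMSO, 115 genes passed the threshold, against 60 with no filter, 195 with an intensity trend and robust prior, 219 with array weights, 182 in the fit to 8 arrays, and 6 to 207 when 1 array was left out, the lowest number without replicate 2 of DMSO and the highest without replicate 1 of withaferin A. For withaferin A against celastrol the 7 genes became 11 with no filter, 12 with median centring, 29 with the trend, 19 with array weights, 0 in the fit to 8 arrays and 0 to 56 with 1 array left out. For withaferin A against DMSO the 0 genes became 8 with the trend, 21 with array weights and 0 to 172 with 1 array left out. The difference of Ptgs2 between celastrol and DMSO was 0.73 to 0.94 with 1 array left out. It fell short of the threshold in 5 of these fits, which is a description, since this comparison chose the gene. Deviations of same-numbered arrays had correlations from -0.28 to 0.12, and the main fit did not pair arrays by number. Whether the numbers mark a shared batch was not tested. With a replicate block 54 genes passed for celastrol against DMSO; the difference of 0.85 for Ptgs2 is the same by construction, since every group holds each number once.

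Of 399 values of the other 7 genes, 380 kept their direction and side of the threshold, 17 small differences changed sign and 2 passed it. For withaferin A against DMSO, Ptgds was 0.070 after quantile normalization, 0.0070 with array weights and -0.077 to 0.014 with 1 array left out. In that comparison Ptger2 was -0.068 after quantile normalization, -0.033 with median centring and -0.057 to 0.081 with 1 array left out, and Ptges was -0.10 to 0.036. For withaferin A against celastrol, Ptger4 was -0.041 after quantile normalization, -0.027 with median centring, -0.0065 with array weights and -0.051 to 0.042 with 1 array left out. With 1 array left out, Hpgd was -0.026 to 0.19 and Ptges -0.00034 to 0.14. The cause was not tested. The 2 gains were those of Ptgds for celastrol against DMSO, at 0.40 with array weights and 0.43 without celastrol replicate 4. They are given as a description, since that comparison selected the list. The dimmest of the 8 genes was Ptger2, and with 4 arrays a group the 95% interval of the withaferin A difference from DMSO ran from -0.18 to 0.08 for Ptger4 and from -0.19 to 0.46 for Ptgs2.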

Other observations

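Further cell type and region lists, none of whose genes passed the threshold in any comparison (limma, Benjamini-Hochberg over all genes), are given by their mean log2 signals. In these lists 0 to 3 genes had an unadjusted p below 0.05, against 1561 to 2413 of all 14953 genes tested, depending on the comparison. Perivascular macrophage markers (4 measured, 1 above the filter) lay at 5.60 to 5.75 with withaferin A, 5.50 to 5.69 with celastrol and 5.39 to 5.51 with DMSO, the withaferin A arrays all above the DMSO arrays. Astrocyte markers (5 measured) lay at 9.88 to 10.04 with withaferin A, 9.97 to 10.06 with celastrol and 10.01 to 10.12 with DMSO. Neuronal markers (5 measured) lay at 11.95 to 12.02 with withaferin A, 11.93 to 12.04 with celastrol and 11.96 to 12.08 with DMSO. Mast cell markers (5 measured, 2 above the filter), a known source of prostaglandin D, lay at 5.74 to 5.85 with withaferin A, 5.71 to 5.83 with celastrol and 5.60 to 5.86 with DMSO. Neutrophil markers, all 4 below the filter, lay at 5.09 to 5.28 with withaferin A, 5.13 to 5.26 with celastrol and 4.96 to 5.13 with DMSO. Thalamic genes (7 measured) lay at 8.45 to 9.31 with withaferin A, 8.61 to 9.56 with celastrol and 8.23 to 9.27 with DMSO, and cortical genes (3 measured of 4) at 5.95 to 6.15, 5.81 to 6.05 and 5.92 to 6.03 in these groups. The arrays of the last 6 lists overlapped between all groups.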
